A study of Caenorhabditis elegans with 18 samples.

Results

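The *nhr* genes encode the nuclear hormone receptor family of *C. elegans*, and 293 of the 22625 probe sets of the array measured 254 of them, out of 17118 genes that have a probe set with a single symbol. A probe set was taken as a member when the platform annotation gave it a single gene symbol made of nhr- and a digit. Of the members, 250 carried no suffix letter and 43 carried one (such as _s or _x), which marks probes that may bind more than 1 transcript or gene. RNA came from whole wild-type N2 worms without a transgene or mutation, grown as synchronized populations from embryos. The worms were fed on *E. coli* OP50 (the standard laboratory food and control diet), on *Lactobacillus rhamnosus* CNCM I-3690 or on *L. rhamnosus* CNCM I-4317, for 3 or for 10 days. Each of the 6 groups had 3 arrays, labelled as separate samples, which makes 18 GeneChip *C. elegans* Genome Arrays (Affymetrix). A whole worm gives the RNA of all its tissues, its germ line and its embryos together, so fewer cells of a type and less RNA per cell cannot be told apart.

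Nuclear hormone receptors are transcription factors with a zinc-finger domain that binds DNA and a domain that can bind a small lipophilic ligand such as a sterol or a fatty acid. Nematodes carry many more of them than insects or mammals, and most of the additional ones descend from an ancestor related to the vertebrate receptor HNF4. In the worm, members with known roles set fat desaturation and fatty acid oxidation, the response to dietary vitamin B12, resistance to toxins, moulting and the development of embryo and gonad. The ligands of most members are unknown.

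The values are log2 expression as the authors normalized it, and 1 unit is a doubling of signal. The median of an array lay between 1.27 and 1.40, which is close to the floor of the scale, and differences near it are imprecise. Arrays of a group correlated with r of 0.981 to 0.996 over all probe sets, no pair was identical, and the number of arrays limits the precision. One array stood apart from its group in epidermal and muscle markers. OP50 10 days replicate 1 had a mean of 4.01 over 10 probe sets of epidermal collagen genes and 5.01 over 15 of muscle genes, where the other arrays of the group had 2.45 and 2.20 for epidermis and 3.60 and 3.62 for muscle. The sperm markers (24 probe sets of *msp* genes) set single arrays apart in other groups. At 10 days the list means of replicates 1, 2 and 3 were 5.26, 4.71 and 1.71 on CNCM I-3690 and 4.92, 1.89 and 1.81 on CNCM I-4317.

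Most members lay low on the array. A member was counted as above the medians in a group when it exceeded the median of each of the 3 arrays. By this rule 50 members of 40 genes lay above the medians in all 6 groups, which is 17.1% of the members beside 41.6% of all probe sets. Another 210 members, or 71.7%, lay above in no group, beside 48.5% of all probe sets, and 33 lay above in 1 to 5 groups. In single groups 62 to 71 members were above, or 21.2% to 24.2%, where 46.0% to 46.9% of all probe sets were. Over the 18 arrays the median member had a mean of 0.86 and the median probe set of the array one of 1.34. These shares are descriptions of signal, since probe sets differ in how well their probes bind, and a low value does not show that a gene is silent.

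**Figure D1:**
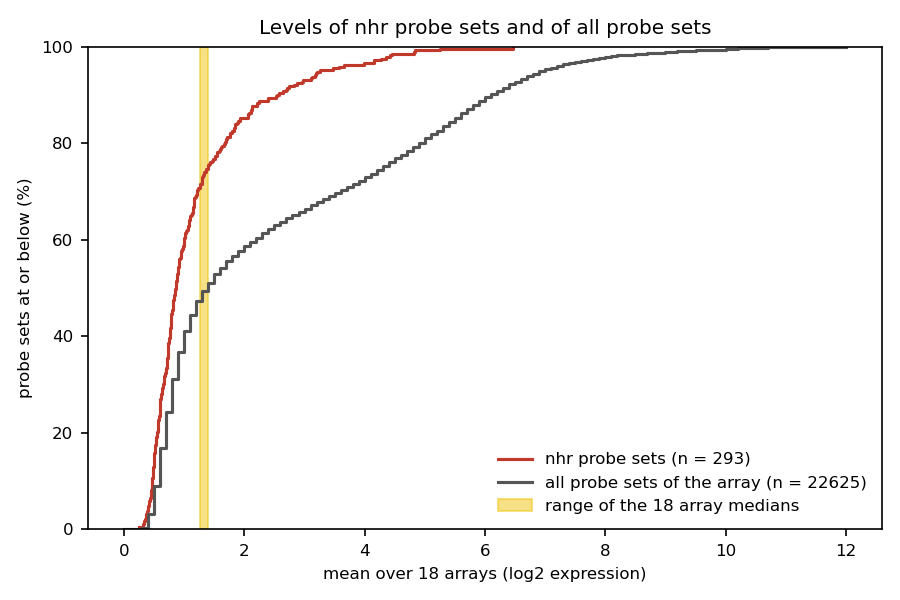
Share of probe sets (%, vertical axis) at or below a mean log2 expression over 18 arrays (horizontal axis), for the 293 nhr probe sets in red and all 22625 probe sets in grey (steps of 0.1 log2). The yellow band spans the 18 array medians, 1.27 to 1.40, and the red curve stands above the grey one there because more of the nhr probe sets lie low.

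The 40 genes above the medians in all groups were *nhr-1*, *nhr-2*, *nhr-3*, *nhr-4*, *nhr-8*, *nhr-10*, *nhr-12*, *nhr-13*, *nhr-14*, *nhr-20*, *nhr-22*, *nhr-23*, *nhr-25*, *nhr-31*, *nhr-34*, *nhr-40*, *nhr-46*, *nhr-47*, *nhr-49*, *nhr-61*, *nhr-64*, *nhr-65*, *nhr-66*, *nhr-70*, *nhr-71*, *nhr-78*, *nhr-80*, *nhr-86*, *nhr-88*, *nhr-97*, *nhr-100*, *nhr-102*, *nhr-105*, *nhr-122*, *nhr-130*, *nhr-158*, *nhr-161*, *nhr-177*, *nhr-243* and *nhr-256*. The highest signal belonged to *nhr-49*, a receptor that acts in fat metabolism much as PPARα does in mammals, with a mean of 6.46 on 1 probe set and 4.82 on the other. Its partner *nhr-66*, which takes part in the control of lipid genes, followed at 5.26 and 4.15. *nhr-23*, the orthologue of the insect moulting receptor DHR3 and of the mammalian RORs, was at 4.84. Means over 4 were also found for *nhr-46*, *nhr-86*, *nhr-88*, *nhr-71* and *nhr-13*. *nhr-11* was the only member above the medians in the 3 groups of 10 days and in no group of 3 days, and no member showed the opposite pattern.

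A low signal on 1 probe set did not speak for the whole gene. Among the 33 genes with more than 1 member, all probe sets were above the medians in every group for 7, some for 9 and none for 17. The spread between probe sets of a gene had a median of 0.67 log2 and exceeded 1 log2 for 10 genes. It was largest for *nhr-23*, whose second probe set had a mean of 0.85, against 4.84 for the first.

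In the RefSeq annotation of the WBcel235 assembly, 164 of the 254 genes lie on chromosome V, 28 on IV, 23 on X, 18 on I, 13 on II and 8 on III. Members of chromosome V were above the medians in all groups least often, at 7.47%, beside 29.9% of all probe sets of that chromosome. The share was 38.9% on IV, 30.4% on I, 26.7% on X and 20.0% on II, beside 46.0%, 54.9%, 36.4% and 42.9% of all probe sets, and 4 of the 10 members on III lay above, beside 1615 of 2833 probe sets.

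Time of feeding moved more members than diet did. Differences were tested with limma over all probe sets at once, and those with an adjusted p (Benjamini-Hochberg) below 0.10 were called. Between 10 and 3 days, 11 members were called on OP50 (5 higher and 6 lower in old worms), 37 on CNCM I-3690 (21 higher, 16 lower) and 33 on CNCM I-4317 (19 higher, 14 lower). These are 3.75%, 12.6% and 11.3% of the members, below the 10.8%, 29.8% and 25.5% called among all probe sets. By direction, 5.41% of all probe sets were called higher and 5.37% lower on OP50, 17.3% and 12.6% on CNCM I-3690, and 15.4% and 10.0% on CNCM I-4317. Of the 78 members whose mean over the 18 arrays exceeded the mean of the array medians, 7.69%, 33.3% and 21.8% were called, beside 18.9%, 49.9% and 43.8% of all probe sets that met the same condition. The remaining 5, 11 and 16 called members had lower means. In all, 61 members of 57 genes (20.8%) were called with age on at least 1 diet, beside 37.8% of all probe sets.

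The number of calls depended on single arrays. On OP50 it fell to 7 without replicate 1 or 3 of 3 days or replicate 3 of 10 days, on CNCM I-3690 to 23 without replicate 1 and to 22 without replicate 2 of 3 days, and on CNCM I-4317 to 20 without replicate 1 of 3 days. The balance of directions also moved when arrays were centred on their medians, to 52 higher and 10 lower on CNCM I-3690 (83.9% higher in place of 56.8%) and to 36 higher and 9 lower for CNCM I-4317. How many of all probe sets were called in these settings is not given, so these moves do not describe the members in particular.

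Of the receptors tied to propionate and vitamin B12, *nhr-114* and *nhr-68* were called lower with age on all diets and *nhr-10* on none. *nhr-68* acts with *nhr-10* to switch on the propionate shunt, the pathway that breaks down propionate when vitamin B12 is scarce, and *nhr-114* protects the germ line on foods poor in that vitamin. Of the 4 probe sets of these 3 genes, 2 were called lower on each diet and none higher, and the median difference was -0.66 with OP50, -1.25 with CNCM I-3690 and -1.13 with CNCM I-4317 as food, beside 0.02, 0.04 and 0.03 over all probe sets.

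*nhr-114* had the widest range of group means among the members, 3.28 log2. At 3 days it was at 4.46, 2.52 and 3.62 on OP50, at 4.45, 4.28 and 4.33 on CNCM I-3690 and at 4.0, 5.01 and 4.06 on CNCM I-4317. At 10 days it was at 2.12, 1.45 and 1.40 on OP50, at 1.16, 1.55 and 1.25 on CNCM I-3690 and at 0.91, 1.27 and 1.05 on CNCM I-4317. All arrays of 3 days stood above all arrays of 10 days, and the old worms on the *Lactobacillus* diets were at about the level of the array medians. The log2 difference was -1.88 ± 0.36 (standard error) on OP50 (adjusted p = 0.00313), -3.04 ± 0.36 on CNCM I-3690 (adjusted p = 1.77e-05) and -3.28 ± 0.36 on CNCM I-4317 (adjusted p = 1.02e-05), and each call was kept when any 1 array was left out.

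*nhr-68* followed a like course. It was at 3.60, 2.59 and 2.71 on OP50 at 3 days and at 2.70, 1.69 and 1.65 at 10 days, so that 1 old array, the replicate 1 with high tissue markers, overlapped the young ones. On CNCM I-3690 it went from 3.71, 3.82 and 3.52 to 1.45, 1.05 and 1.47, and on CNCM I-4317 from 2.71, 3.25 and 3.77 to 1.0, 1.54 and 0.84, without overlap. The difference was -0.95 ± 0.32 on OP50 (adjusted p = 0.0857), -2.36 ± 0.32 on CNCM I-3690 (adjusted p = 5.51e-05) and -2.12 ± 0.32 on CNCM I-4317 (adjusted p = 0.000174). The call on OP50 was lost without replicate 1 or 3 of 3 days or without replicate 2 or 3 of 10 days, with adjusted p from 0.108 to 0.337, and when the OP50 arrays were fitted alone (adjusted p = 0.203). *nhr-10* passed in no comparison, with age differences between -0.38 and 0.38 over its 2 probe sets and 3 diets.

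The enzymes of the propionate shunt, which are targets of *nhr-10* and *nhr-68* and no members of the family, were lower in old worms throughout. All 6 probe sets of *acdh-1*, *ech-6*, *hach-1*, *hphd-1* and *alh-8* were called lower on each of the 3 diets, and they were so whichever array was left out. The median difference was -1.98 with OP50, -2.89 with CNCM I-3690 and -2.44 with CNCM I-4317 as food. The acyl-CoA dehydrogenase *acdh-1* had differences of -2.51, -4.73 and -3.43 in the same order (standard error 0.49 each). None of the 6 was called between diets at either time.

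*nhr-8*, *nhr-31*, *nhr-101* and *nhr-97* also fell with age, on 2 or 3 of the diets. *nhr-8* takes part in resistance to toxins and in cholesterol balance. It stood at 3.80, 3.52 and 3.27 in young worms on CNCM I-3690 and at 2.54, 1.71 and 1.83 in old ones, and at 2.87, 2.99 and 2.98 on CNCM I-4317 against 1.88, 1.71 and 2.03. On OP50 the 3-day values of 2.55, 2.70 and 3.37 overlapped the 10-day values of 2.47, 2.57 and 2.62. The difference was -1.50 ± 0.21 on CNCM I-3690 (adjusted p = 9.71e-05) and -1.07 ± 0.21 on CNCM I-4317 (adjusted p = 0.0019), and on OP50 it was -0.32 (95% confidence interval -0.77 to 0.14, adjusted p = 0.481).

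*nhr-31*, which is needed for the growth of the excretory canal and controls subunits of the vacuolar ATPase, behaved alike. Its probe set carries a suffix letter. The values at 3 days were 3.21, 2.63 and 3.35 on OP50, 3.95, 3.48 and 3.76 with CNCM I-3690, and 3.86, 4.0 and 3.68 with CNCM I-4317. At 10 days they were 2.76, 2.70 and 2.85, then 2.63, 2.40 and 2.73, and 2.75, 2.65 and 2.48 in the same order, so the diets were close to each other in old worms. The fall was called on CNCM I-3690 (-1.14 ± 0.17, adjusted p = 0.000119) and on CNCM I-4317 (-1.22 ± 0.17, adjusted p = 7.76e-05), and the OP50 difference was -0.29 (95% confidence interval -0.65 to 0.06, adjusted p = 0.37).

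*nhr-101* was called lower on all diets, with differences of -0.74 (OP50), -0.83 (CNCM I-3690) and -0.75 (CNCM I-4317), a standard error of 0.13 each and adjusted p of 0.00122, 0.000173 and 0.000484. Its arrays lay between 1.28 and 1.97 at 3 days and between 0.66 and 1.08 at 10 days, without overlap and near the floor. Together with *nhr-114* and *nhr-68* it completes the members called on all 3 diets. *nhr-97* (175182_at) fell by 0.97 on CNCM I-3690, from 3.02, 3.14 and 2.85 to 2.20, 1.95 and 1.94 (adjusted p = 0.000608), and by 0.48 on CNCM I-4317, where the arrays overlapped and the call was lost without replicate 1 or 2 of 3 days or replicate 1 or 3 of 10 days (adjusted p = 0.0622 with all arrays and 0.162 to 0.246 without one). The other probe set of *nhr-97* had age differences from -0.26 to 0.08 and was not called.

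**Figure D2:**
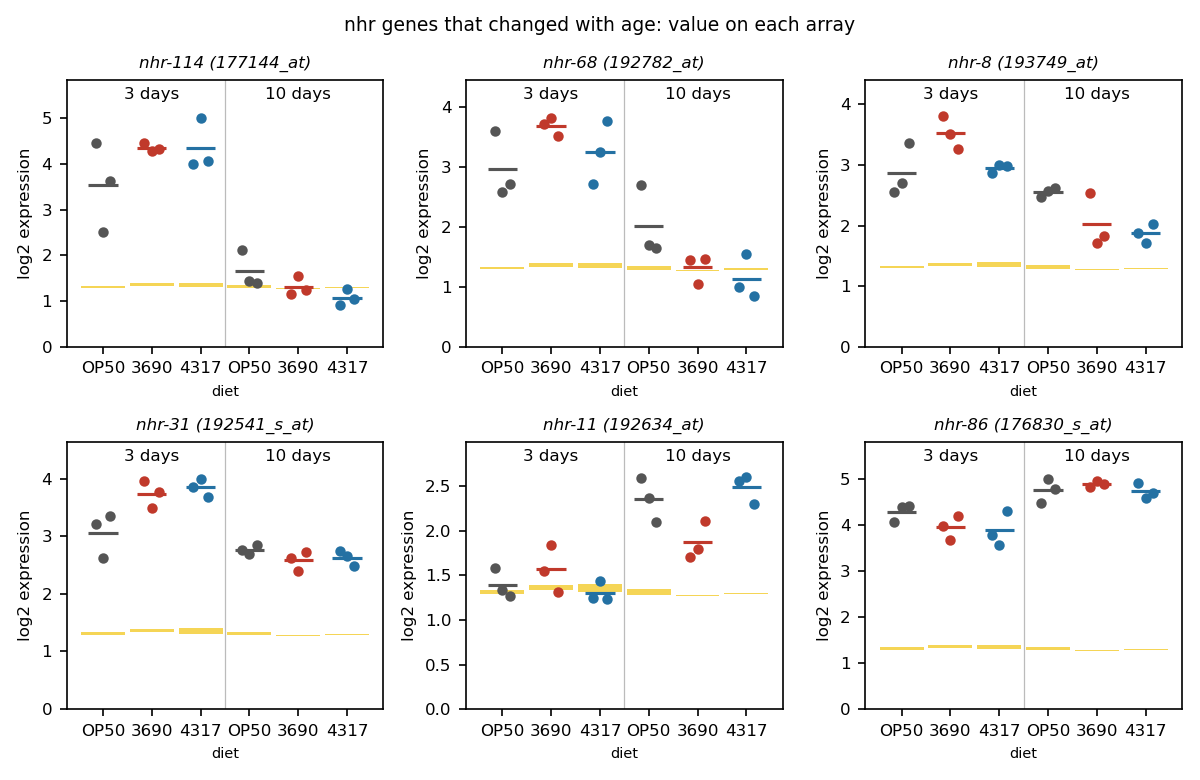
Log2 expression (vertical axis) of 6 nhr genes on each of the 18 arrays, by diet at 3 days (left) and at 10 days (right), with OP50 in grey, CNCM I-3690 in red and CNCM I-4317 in blue. Points are arrays, lines are group means, and yellow boxes span the array medians of the group. nhr-114 lies between 2.52 and 5.01 at 3 days and between 0.91 and 2.12 at 10 days, and the 10-day means of nhr-86 and nhr-11 lie above those of 3 days, with overlapping points for nhr-11 on CNCM I-3690.

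Other members rose with age, by up to 1.18 log2. *nhr-11*, by its probe set 192634_at, was at 1.58, 1.34 and 1.27 in young and at 2.59, 2.37 and 2.10 in old worms on OP50, and at 1.25, 1.44 and 1.23 against 2.56, 2.60 and 2.30 on CNCM I-4317. The groups were apart on both diets, with differences of 0.96 ± 0.16 (adjusted p = 0.000822) and 1.18 ± 0.16 (adjusted p = 5.87e-05). On CNCM I-3690 the young values of 1.55, 1.84 and 1.32 overlapped the old values of 1.71, 1.79 and 2.10, and the difference was 0.30 (95% confidence interval -0.03 to 0.63). The second probe set of *nhr-11*, which lay below the medians, was called higher by 0.59 on CNCM I-3690 and by 0.75 with CNCM I-4317. The first of these calls was lost without replicate 3 of 3 days or replicate 2 of 10 days, with adjusted p of 0.127 and 0.139.

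*nhr-86*, a relative of HNF4 that detects toxic metabolites of bacteria in the intestine, rose on both *Lactobacillus* diets. It was at 3.97, 3.67 and 4.20 at 3 days and 4.82, 4.94 and 4.89 at 10 days on CNCM I-3690 (0.94 ± 0.18, adjusted p = 0.00132). On CNCM I-4317 it was at 3.79, 3.56 and 4.31 and then at 4.92, 4.58 and 4.70 (0.84 ± 0.18, adjusted p = 0.00358). On OP50 the values of 4.07, 4.39 and 4.42 at 3 days and 4.47, 4.99 and 4.78 at 10 days did not overlap either, but the difference of 0.46 was not called (95% confidence interval 0.07 to 0.85, adjusted p = 0.166). *nhr-154* rose by 1.03 ± 0.19 on CNCM I-3690 (adjusted p = 0.00094) and by 0.68 ± 0.19 on CNCM I-4317 (adjusted p = 0.0195), with old arrays between 2.12 and 2.63 and young ones between 1.05 and 1.92.

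*nhr-78* and *nhr-22* rose on both *Lactobacillus* diets too, *nhr-78* by 0.46 and 0.70 and *nhr-22* by 0.68 and 0.45 on CNCM I-3690 and CNCM I-4317. *nhr-102* rose on OP50 (0.60, adjusted p = 0.044) and on CNCM I-4317 (0.87, adjusted p = 0.00177). The probe sets of *nhr-22*, *nhr-86* and *nhr-102* carry suffix letters, as do those of *nhr-23* and *nhr-80*. The call of *nhr-22* on CNCM I-4317 was lost without replicate 1 of 3 days or replicate 3 of 10 days (adjusted p = 0.102 and 0.171), and that of *nhr-102* on OP50 without replicate 2 of 3 days or replicate 1 or 2 of 10 days (adjusted p = 0.132 to 0.158). On OP50 *nhr-100* was called higher (0.42, adjusted p = 0.0962) and *nhr-88* (190898_at) lower (-0.40, adjusted p = 0.0555). This is not the *nhr-88* probe set with the highest mean of 4.36, which is 174119_at. The call of *nhr-100* was lost without any of the 6 arrays, and that of *nhr-88* without replicate 2 or 3 of 3 days or replicate 3 of 10 days. *nhr-17* was at 1.46, 1.50 and 1.33 in young and 1.58, 3.05 and 2.35 in old worms on CNCM I-3690 (0.89, adjusted p = 0.0911), and its call was lost without any array but replicate 1 of 10 days.

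The 3 age comparisons share no arrays, so their calls can be set side by side. They do share the estimate of the spread of each probe set, so the calls are not fully independent. CNCM I-3690 and CNCM I-4317 had 15 called members in common, 7 higher and 8 lower, which is 40.5% of the calls on the former and 45.5% on the latter, where the same shares over all probe sets were 63.8% and 74.6%. The higher ones were of *nhr-11*, *nhr-13*, *nhr-22*, *nhr-46*, *nhr-78*, *nhr-86* and *nhr-154*, and the lower ones of *nhr-8*, *nhr-31*, *nhr-68*, *nhr-97*, *nhr-101*, *nhr-114*, *nhr-156* and *nhr-205*. Some of these calls ended when 1 array was left out, that of *nhr-205* on CNCM I-3690 for 5 of the 6 arrays (adjusted p = 0.0760 with all), that of *nhr-156* with CNCM I-4317 for 3 (0.0725 with all) and that of *nhr-46* with CNCM I-4317 for 2 (0.0358 with all). The shared call of *nhr-46* was by 192835_at and not by its other probe set, 174020_at. The latter had its highest group mean on CNCM I-3690 at 10 days and its lowest on CNCM I-4317 at 10 days. OP50 shared 3 calls with CNCM I-3690, or 27.3% of its own and 8.11% of the other's (78.9% and 28.5% over all probe sets), and 5 with CNCM I-4317, or 45.5% and 15.2% (77.0% and 32.5% over all probe sets). No member was called in opposite directions on 2 diets. Such calls were rare among all probe sets as well, 10 for OP50 and CNCM I-3690, 12 for OP50 and CNCM I-4317 and 9 for the *Lactobacillus* diets. Those shared in the same direction were 1922, 1876 and 4302, so the absence of opposite calls is not particular to the members. Across the 293 members, which are not independent replicates, the differences correlated with r = 0.78 between the *Lactobacillus* diets and with 0.58 and 0.67 between OP50 and each of them, beside 0.90, 0.78 and 0.82 over all probe sets.

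**Figure D3:**
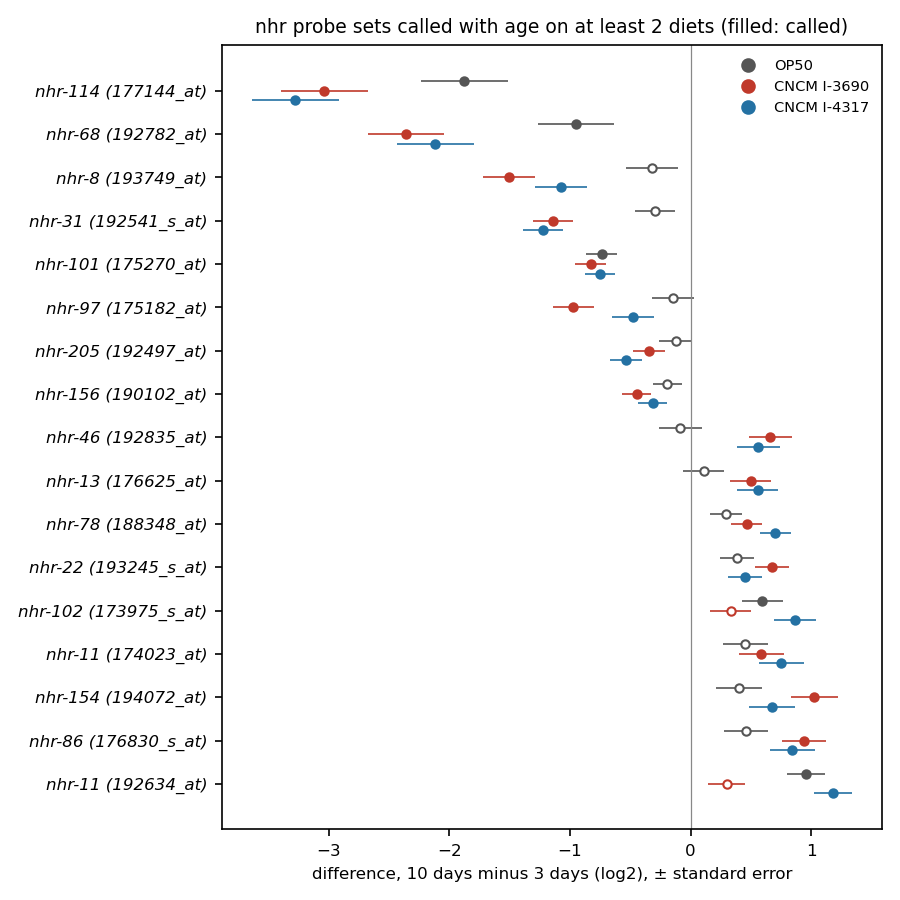
Log2 difference between 10 and 3 days (horizontal axis) with its standard error for the 17 nhr probe sets called on at least 2 diets, with OP50 in grey, CNCM I-3690 in red and CNCM I-4317 in blue. Filled points were called and open points were not. The 3 points of nhr-114 lie at -1.88, -3.04 and -3.28, and those of nhr-101 lie close together at -0.74, -0.83 and -0.75.

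Whether the change with age differed between diets was tested directly, and no member passed. Among all probe sets 0.809% were called for CNCM I-3690 against OP50, 0.230% for CNCM I-4317 against OP50 and none for the 2 *Lactobacillus* diets, and 24, 17 and 20 members had an unadjusted p under 0.05, or 8.19%, 5.80% and 6.83% beside 13.1%, 9.66% and 5.43% of all probe sets. The first 2 of these tests share the OP50 arrays. The fall of *nhr-8* was larger on CNCM I-3690 than on OP50 by 1.19 log2 and had the smallest adjusted p among the members (0.113). For *nhr-31* the differences were -0.85 (adjusted p = 0.139) for CNCM I-3690 and -0.93 (adjusted p = 0.188) for CNCM I-4317, for *nhr-68* -1.41 (adjusted p = 0.193) and for *nhr-114* -1.16 (adjusted p = 0.345) for CNCM I-3690 against OP50. The falls of *nhr-68* and *nhr-114* were larger than on OP50 on CNCM I-4317 as well, by the age differences given above. For *nhr-114* the difference from OP50 was -1.40 there, without a call. The count depended on 1 array for CNCM I-3690 against OP50, since 9 members passed once the 3-day replicate 3 of CNCM I-3690 was left out. In the same comparison 1 member passed without replicate 3 of OP50 at 3 days, without replicate 3 of OP50 at 10 days or without the 10-day replicate 1 of CNCM I-3690. The shares of all probe sets are those of the fit to all arrays, so counts with an array left out cannot be set beside them.

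Receptors of fat metabolism and lifespan, 10 probe sets of *nhr-8*, *nhr-13*, *nhr-49*, *nhr-66*, *nhr-69*, *nhr-76* and *nhr-80*, had calls with age in both directions on the *Lactobacillus* diets. None was called on OP50. With CNCM I-3690 the calls were 3 higher and 2 lower, with CNCM I-4317 3 higher and 1 lower, with median differences of 0.05, 0.14 and 0.28 beside 0.02, 0.04 and 0.03 over all probe sets, of which 10.8%, 29.8% and 25.5% were called. *nhr-49* was at 5.73, 6.18 and 6.31 at 3 days and at 6.90, 6.94 and 6.33 at 10 days on CNCM I-4317 (0.65 ± 0.19, adjusted p = 0.0213). The groups were barely apart, and the call was lost without replicate 1 of 3 days (adjusted p = 0.118). Its second probe set was higher by 0.47 (adjusted p = 0.079), a call lost without any array but replicate 2 of 10 days. On OP50 and CNCM I-3690 the differences of the 2 probe sets were 0.48, 0.48, 0.39 and 0.21, with no call.

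*nhr-66* rose on CNCM I-3690, from 3.64, 3.75 and 3.97 to 4.36, 4.52 and 4.50 by the probe set 192260_at (0.68 ± 0.17, adjusted p = 0.00777), and by 0.40 on the other probe set, a call that 5 of the 6 arrays could end. *nhr-13*, another partner of *nhr-49*, was higher by 0.50 (adjusted p = 0.0409) and 0.56 (adjusted p = 0.028) on CNCM I-3690 and CNCM I-4317. These calls were lost without replicate 1 of 3 days or replicate 2 or 3 of 10 days on the former (adjusted p = 0.114 to 0.129), and without replicate 2 of 3 days or replicate 3 of 10 days on the latter (adjusted p = 0.151 and 0.153). *nhr-80*, which sustains oleic acid synthesis and the long life of worms without a germ line, was lower by 0.44 log2 on CNCM I-3690 (1.86 against 2.30, adjusted p = 0.0796), and this call was lost without replicate 1 or 3 of 3 days or replicate 1 or 2 of 10 days. *nhr-69* and *nhr-76* were not called. Between-array smoothing by cyclic loess ended the calls of *nhr-49*, *nhr-13*, *nhr-80* and the second probe set of *nhr-66*.

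Genes that *nhr-49* and its partners control were counted beside them and are no members. Of 14 probe sets of 9 genes, 1 was higher and 1 lower with age on OP50, 7 higher and 2 lower on CNCM I-3690, and 6 higher and 2 lower on CNCM I-4317. The last count of 8 fell to 3 without replicate 1 of CNCM I-4317 at 10 days. Of all probe sets, 10.8%, 29.8% and 25.5% were called. Between diets at 3 days, 1 of the 14 was higher on CNCM I-3690 than on OP50 (6.12% of all probe sets called). The count against CNCM I-4317 was also 1 higher (0.119%). At 10 days 1 was lower on CNCM I-3690 than on OP50 (0.539%). On CNCM I-4317, 1 was higher and 1 lower than on OP50 (0.937%). The change with age on CNCM I-3690 against OP50 was lower for 1 (0.809%). With age, the desaturase *fat-7* was lower on each diet (-1.77, -4.37 and -2.38 on OP50, CNCM I-3690 and CNCM I-4317). By contrast, the desaturase *fat-5* was higher (1.14, 1.39 and 2.50). The monooxygenase *fmo-2* was higher on both *Lactobacillus* diets (1.99 and 1.85), as were the 3 probe sets of the glyoxylate cycle enzyme *icl-1* (0.83 to 1.25). Of the cofactors that work with these receptors, the mediator subunit *mdt-15* was not called, and *sbp-1*, the worm SREBP, was higher with age on all diets (0.81, 0.47 and 0.51).

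**Figure D4:**
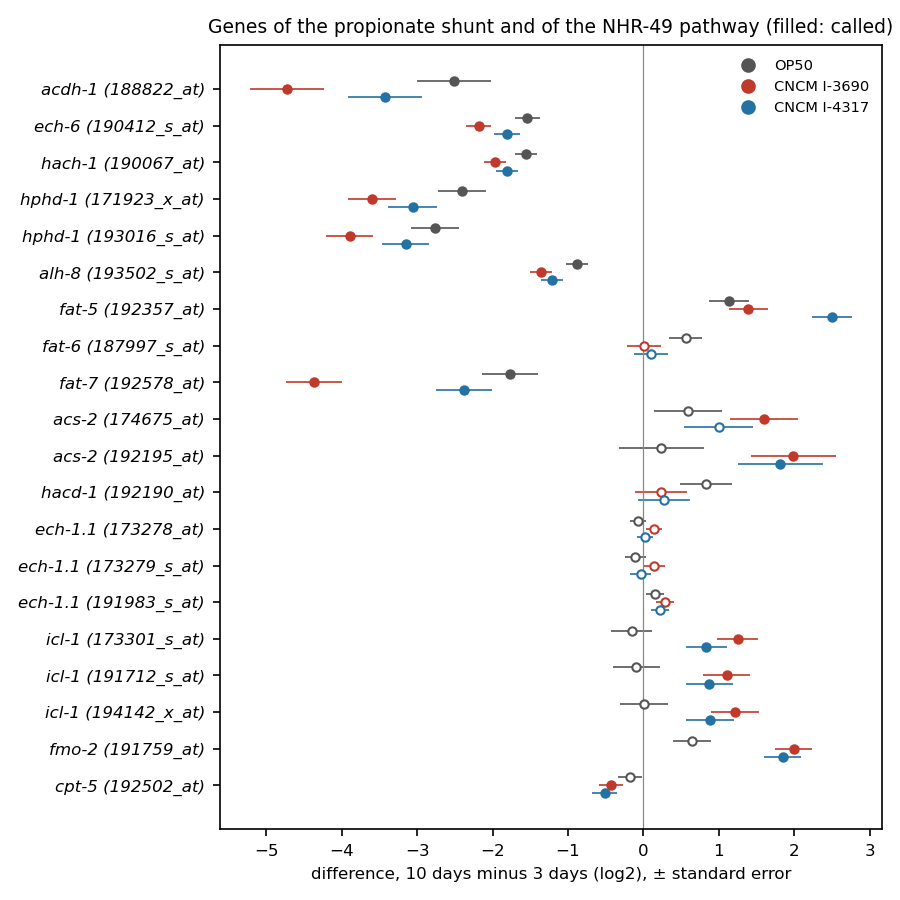
Log2 difference between 10 and 3 days (horizontal axis) with its standard error for the 6 probe sets of the propionate shunt (acdh-1 to alh-8) and the 14 of the NHR-49 pathway (fat-5 to cpt-5), by diet in the same colours. Filled points were called. All points of the propionate shunt lie below 0, while those of the NHR-49 pathway lie on both sides, with fat-7 between -4.37 and -1.77 and fat-5 between 1.14 and 2.50.

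Among 15 probe sets of 11 receptors with orthologues in insects or vertebrates, only those of *nhr-8*, *nhr-23*, *nhr-25* and *nhr-64* included 1 above the medians in all groups. None was called with age on OP50. With CNCM I-3690 the calls were 2 higher and 1 lower, with CNCM I-4317 1 higher and 1 lower, *nhr-8* being the lower one each time. Of all probe sets, 10.8% were called on OP50. On CNCM I-3690 17.3% were called higher and 12.6% lower, and on CNCM I-4317 15.4% and 10.0%. These shares also stand beside the receptors tied to toxins, infection, hypoxia and iron below. *nhr-23* was higher on CNCM I-3690 (4.44, 4.54 and 4.50 against 5.48, 4.86 and 4.92, difference 0.59, adjusted p = 0.0249), and its call was lost without replicate 1 of 10 days (adjusted p = 0.138) and with cyclic loess, where the difference was 0.33 (adjusted p = 0.250). *nhr-41* and *nhr-67*, the orthologues of insect DHR78 and tailless, had 1 call each near the floor of the array, of 0.29 and 0.35. These were lost without replicate 2 of 3 days or replicate 2 or 3 of 10 days of CNCM I-3690 and without replicate 1 or 2 of 3 days or of 10 days of CNCM I-4317. Of the 7 probe sets of receptors tied to toxins, infection, hypoxia and iron, *nhr-86* was higher and *nhr-8* lower on both *Lactobacillus* diets, *nhr-57*, a gene known for its induction in low oxygen, was lower on CNCM I-3690 only by a call that 4 of the 6 arrays could end (-0.47, adjusted p = 0.0852), and *nhr-14*, *nhr-45* and *nhr-176* were not called.

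Markers of several tissues moved with age beside these members. Muscle markers were lower in 9, 14 and 14 of 15 probe sets on OP50, CNCM I-3690 and CNCM I-4317, epidermal collagens in 2, 7 and 6 of 10, and sperm genes in 20, 24 and 24 of 24. Oocyte and eggshell genes were higher in 4, 21 and 17 of 22. Intestinal markers, of which 2, 3 and 2 of 15 were higher and 4, 7 and 7 lower, had list means of 3.67 to 4.19 on the arrays of 3 days and of 3.06 to 3.77 on those of 10 days. Above the medians lay 11 to 12 of 15 intestinal probe sets at 3 days and 9 of 15 at 10 days, and 7 of 10 epidermal ones at 3 days and 5 to 6 at 10 days. The part of these shifts in the changes of the *nhr* genes was not tested.

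Between diets, members were called only in young worms on CNCM I-3690 against OP50. There 2 members were higher and 4 lower, or 2.05% of the members beside 6.12% of all probe sets (3.85% higher and 2.27% lower), all with a mean above the mean of the array medians. The count was 1 without replicate 2 of OP50. For CNCM I-3690 it was 0, 1 and 14 when replicates 1, 2 and 3 were left out in turn, so the count depended on the arrays in the fit. Leaving out an array also lowers the precision, and some calls ended although the difference grew. For *nhr-25* it was -0.82 without replicate 2 of OP50, in place of -0.79. Cyclic loess moved the share of higher calls among members from 33.3% to 62.5%. Shares of all probe sets are given for the main fit only, so these moves do not describe the members in particular.

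*nhr-31* was higher on CNCM I-3690, where its values given above did not overlap those on OP50 (0.67 ± 0.17, adjusted p = 0.0409, and 0.135 when only the compared arrays were fitted). On CNCM I-4317 it was higher than on OP50 by 0.78 (adjusted p = 0.106), without a call and likewise without overlap. *nhr-137* was at 2.65, 2.66 and 2.10 on CNCM I-3690, 1.85, 1.81 and 1.57 on OP50 and 1.65, 1.56 and 1.72 on CNCM I-4317. It was higher than on OP50 by 0.73 ± 0.20 (adjusted p = 0.062), while its difference of 0.83 from CNCM I-4317 had an adjusted p of 0.235. With age *nhr-137* fell on CNCM I-3690 by 0.84 (adjusted p = 0.00569).

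*nhr-25*, the orthologue of insect Ftz-F1 and mammalian SF-1 with roles in epidermis, moulting and gonad, was lower on CNCM I-3690. Its values were 1.53, 1.54 and 2.03 there, 2.71, 2.42 and 2.33 on OP50 and 2.01, 2.17 and 2.13 on CNCM I-4317, and the difference from OP50 was -0.79 ± 0.19 (adjusted p = 0.0381). *nhr-2*, a gene of the early embryo, was lower by 2 of its 4 probe sets. By 193015_s_at it was at 2.26, 1.97 and 3.03 on CNCM I-3690 against 3.80, 3.32 and 3.17 on OP50 (-1.01 ± 0.26, adjusted p = 0.0454) and by 173878_at at 1.81, 1.59 and 2.17 against 2.61, 2.33 and 2.52 (-0.63 ± 0.20, adjusted p = 0.0949). The other 2 had differences of -0.41 and 0.03 without a call, the latter on a probe set below the medians. *nhr-154* was at 1.20, 1.05 and 1.81 against 1.88, 2.08 and 2.02 (-0.65 ± 0.19, adjusted p = 0.0799).

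In each of the falls, replicate 3 of CNCM I-3690 was the array closest to OP50. Leaving out replicate 2 of OP50 or replicate 1 of CNCM I-3690 ended the call of every one of these 6 probe sets. Leaving out replicate 2 of CNCM I-3690 ended it for all but *nhr-31*, replicate 1 of OP50 for *nhr-25* and both probe sets of *nhr-2*, and replicate 3 of OP50 for *nhr-137*, *nhr-154* and *nhr-2* by 173878_at. The adjusted p without an array that ended a call ran from 0.104 to 0.374. A fit to the compared arrays alone also ended the calls of *nhr-154* (adjusted p = 0.126) and of *nhr-2* by 193015_s_at (adjusted p = 0.106), and cyclic loess that of *nhr-2* by 173878_at (adjusted p = 0.111). Beside these members, 19 of 24 sperm probe sets and 3 of 15 of muscle were higher on CNCM I-3690, and 5 of 22 oocyte and eggshell and 2 of 10 embryo probe sets were lower. The list mean of the sperm markers ran from 7.93 to 9.08 on CNCM I-3690 and from 4.33 to 5.86 on OP50, that of the oocyte markers from 7.76 to 7.92 and from 8.14 to 8.22. Replicate 3 of CNCM I-3690 was the array closest to OP50 here too, at 7.93 for sperm and 7.92 for oocyte markers. Its embryo markers were at 3.22, those of replicates 1 and 2 at 2.99 and 2.98, and those on OP50 at 3.29 to 3.38. The part of these shifts in the changes of *nhr-2* and *nhr-25* was not tested.

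**Figure D5:**
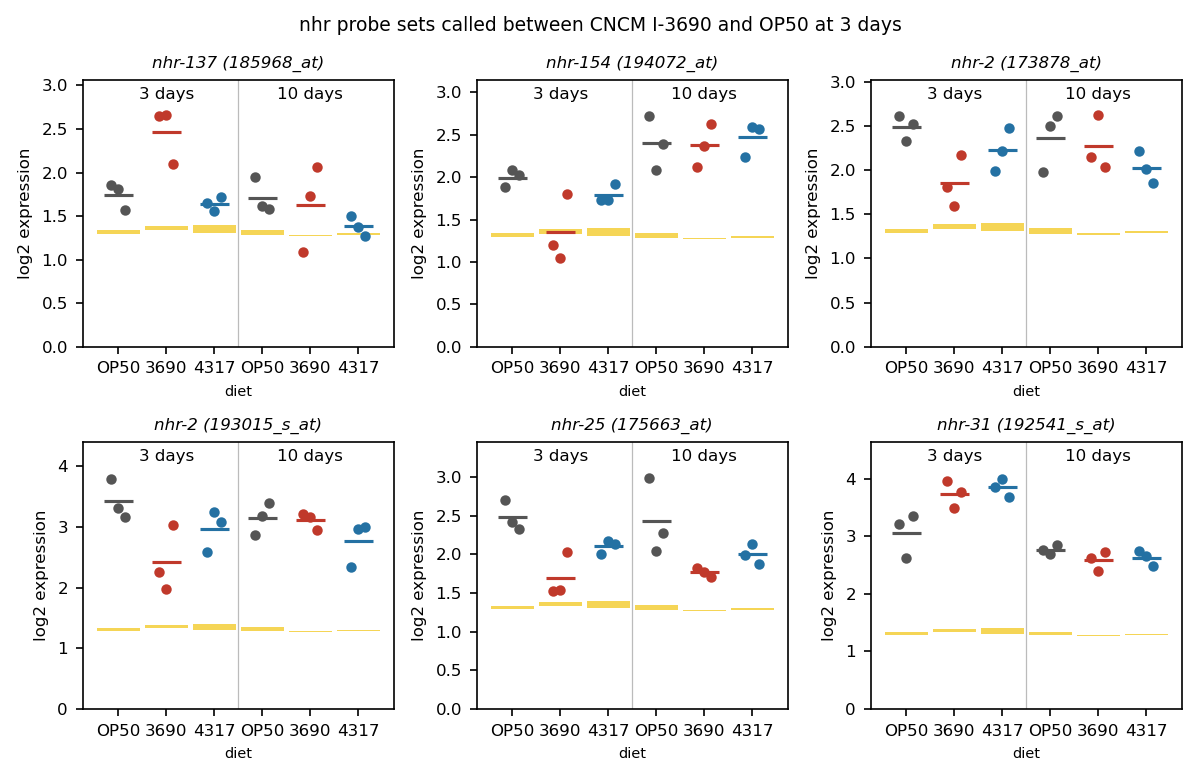
Log2 expression (vertical axis) on each of the 18 arrays for the 6 nhr probe sets called between CNCM I-3690 and OP50 at 3 days, with colours, lines and boxes by diet and group as for the genes that changed with age. In young worms the 3 red points of nhr-25 (1.53 to 2.03) lie below the 3 grey ones (2.33 to 2.71), and those of nhr-31 (3.48 to 3.95) lie above (2.63 to 3.35).

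In the other diet comparisons no member was called by limma. At 3 days 0.115% of all probe sets were called for CNCM I-4317 against OP50 and 0.119% between the *Lactobacillus* diets, and 10 and 23 members had an unadjusted p under 0.05, or 3.41% and 7.85% beside 9.80% and 8.99% of all probe sets. Without replicate 3 of CNCM I-3690, 8 members passed in the comparison of the 2 *Lactobacillus* diets, and 1 member passed for CNCM I-4317 against OP50 without replicate 1 of OP50 or without replicate 3 of CNCM I-4317. How many of all probe sets passed without these arrays is not given, so these counts do not describe the members in particular. At 10 days 0.539% of all probe sets were called for CNCM I-3690 against OP50, 0.937% for CNCM I-4317 against OP50 and 0.0177% between the *Lactobacillus* diets, and 16, 24 and 16 members had an unadjusted p under 0.05. These are 5.46%, 8.19% and 5.46% of the members, beside 7.28%, 10.7% and 7.22% of all probe sets. *nhr-8*, without a call in old worms, was at 1.88 ± 0.16 (SD, n = 3) on CNCM I-4317 and 2.55 ± 0.07 on OP50, a difference of -0.68 (95% confidence interval -1.13 to -0.22, adjusted p = 0.232). *nhr-25*, likewise not called, had means of 2.44 ± 0.50 on OP50 and 1.77 ± 0.06 with CNCM I-3690. On OP50, replicate 1 was at 2.99 and the other arrays at 2.04 and 2.27 (difference -0.67, 95% confidence interval -1.08 to -0.26, adjusted p = 0.259).

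Nuclear receptors with names outside the *nhr* series were counted separately. Of 9 probe sets of *daf-12*, *fax-1*, *odr-7*, *sex-1* and *unc-55*, 1 of *sex-1* was lower in young worms on CNCM I-3690 against OP50 (-0.80, adjusted p = 0.0837), and 2 of *sex-1* were higher with age on CNCM I-3690 (0.65 and 0.67), where 17.3% of all probe sets were. The dauer receptor *daf-12* was not called in the age comparisons, where *daf-36*, which starts the synthesis of its steroid ligands, was lower on each diet (-0.72, -1.41 and -0.99). Of the other enzymes of that synthesis, *dhs-16* was higher on OP50 (0.47) and on CNCM I-4317 (0.45), and *daf-9* and *hsd-1* were not called.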

How the data were processed

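Whole N2 worms of 6 groups (3 diets at 3 and 10 days) were measured on 18 arrays, 3 per group. The Methods give 4 replicates per condition and the supplementary legends 3. All arrays were used. According to the labels, RNA was amplified with a kit for 3' arrays. The authors corrected the background by RMA and normalized by quantiles, and the deposited values are log2 expression. The version of RMA is not given in the sources used here.

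Members came from the platform annotation. Groups were compared with limma 3.58.1 under R 4.3.3 (lmFit and eBayes on all 18 arrays without a filter, each group with its own mean; residual degrees of freedom 12, prior 4.09). There were 12 comparisons, namely each pair of diets at each time, 10 against 3 days on each diet, and these changes between diets. P-values received a Benjamini-Hochberg adjustment over the 22625 probe sets, with calls at 0.10, since the Methods state 0.01 and the supplementary tables run to just under 0.10. The replicates are labelled separate samples, so p-values measure the spread between these samples.

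Named members were all calls of a comparison with at most 8, otherwise the 5 largest rises and falls among calls whose arrays did not overlap and that lay above the medians in the higher group, the 10 highest means, members of the role lists, and those called on more than 1 diet. The members and lists were chosen with earlier results of these data known. Simulated data served to check the fit.

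Alternatives tried were a call at 0.05 or 0.01, the compared arrays fitted alone, replicate number as a block, a filter at percentile 40, median centring, cyclic loess, eBayes with trend and robust settings, members without a suffix letter, and each array left out. Counts of the target lists without each array were added after seeing the data. A further 14 probe sets that name an *nhr* gene among several symbols were no members. No sequence is printed.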

Additional observations from a re-analysis of the deposited data

How the results depend on the processing

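Alternatives were run for the called differences of named members. None of these changed sign in 834 alternatives, and 653 kept their side of the threshold. Many alternatives, such as other thresholds, eBayes settings, the replicate block and the compared arrays fitted alone, leave a difference as it is. Only left-out arrays, median centring and cyclic loess could change a sign. Fitting the compared arrays alone ended the age calls of *nhr-13*, *nhr-46*, *nhr-67*, *nhr-97* and *nhr-156* on CNCM I-4317, *nhr-57* on CNCM I-3690 and *nhr-88* on OP50 (adjusted p = 0.107 to 0.181). Median centring ended those of *nhr-57*, *nhr-80* and *nhr-205* on CNCM I-3690 and *nhr-156* with CNCM I-4317, cyclic loess those of *nhr-57* and of *nhr-2* by 193015_s_at on CNCM I-3690, *nhr-46* with CNCM I-4317 and *nhr-100* on OP50, and eBayes with trend and robust settings those of *nhr-88* and *nhr-100* on OP50 and *nhr-17* and *nhr-80* on CNCM I-3690. Other calls ended by these settings are given with their members. At an adjusted p under 0.05 the called members were 3 for CNCM I-3690 against OP50 at 3 days, 5 with age on OP50 and 23 with age on CNCM I-3690. Under 0.01 they were 0, 3 and 13, and 11 with age on CNCM I-4317. Fitted on the compared arrays alone, 7 were called with age on OP50. Median centring, which moved the median difference of all probe sets by 0.09 log2 or less, gave 62 with age on CNCM I-3690 (52 higher, 10 lower). A filter at percentile 40 gave 1 for CNCM I-4317 against OP50 at 3 days and 1 for the change with age on CNCM I-3690 against OP50, and eBayes with trend gave 1 for CNCM I-3690 against OP50 at 10 days. Above percentile 60 of every array lay 26 members. Shares of all probe sets are not given for these settings, so these counts do not describe the members in particular. The cause of the moves between settings was not tested.

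Replicate numbers were not taken as pairs. Same-numbered arrays deviated together with r of -0.32 to 0.47, beside -0.43 to 0.36 for arrays of other numbers. With 3 arrays per group these values cannot exclude a pairing. With a replicate block the age calls of *nhr-68* (adjusted p = 0.101) and *nhr-100* on OP50 (adjusted p = 0.106) and *nhr-17* on CNCM I-3690 (adjusted p = 0.115) ended, as did that of *nhr-2* by 173878_at between diets (adjusted p = 0.102), and 1 member was called for CNCM I-4317 against OP50 at 3 days and 3 for the change with age on CNCM I-3690 against OP50.

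With 1 array left out, called members ranged from 0 to 14 for CNCM I-3690 against OP50, 0 to 1 for CNCM I-4317 against OP50 and 0 to 8 between the *Lactobacillus* diets at 3 days, and were 0 in all diet comparisons at 10 days. They ranged from 7 to 11 with age on OP50, 22 to 34 on CNCM I-3690 and 20 to 31 on CNCM I-4317. For the change with age they ranged from 0 to 9 for CNCM I-3690 against OP50, 0 to 1 for CNCM I-4317 against OP50 and 0 to 1 between the *Lactobacillus* diets. Shares of all probe sets called are not given for these fits. Most members lay near the floor of the arrays, where differences are imprecise.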

Other observations

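Of the 14 probe sets that name an *nhr* gene among several symbols, 11 lay above the medians in no group and 1 in all groups, and 4 were called in at least 1 comparison. The probe set shared by *nhr-74* and *nhr-244* (192641_s_at) had a mean of 2.29 and an age difference of -0.55 on CNCM I-3690 (adjusted p = 0.0931). The probe set shared by *nhr-88* and *ZC239.1* (173008_s_at) had age differences of 0.85 on OP50 (adjusted p = 0.00862) and 0.51 on CNCM I-3690 (adjusted p = 0.0566), where the *nhr-88* probe set 190898_at had -0.40 on OP50. The probe set of *nhr-62*, a receptor of the response to dietary restriction whose symbol the annotation repeats, had a mean of 0.77 and was called higher with age on CNCM I-4317 (0.43, adjusted p = 0.0307).

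The 11 members that RefSeq annotates as pseudogenes all lay above the medians in no group, and 1 of them, *nhr-278*, was called in 1 comparison.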
